A study of Mus musculus with 35 samples.

Results

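A set of 10 genes of the endoplasmic reticulum (ER) stress response were followed across 35 bulk RNA-seq libraries of mouse medial prefrontal cortex (mPFC), an area of the frontal cortex. They are Xbp1, Hspa5, Hsp90b1, Dnajb9, Sdf2l1, Pdia4, Pdia6, Creld2, Manf and Derl2, taken as a named list, and all 10 were present among the 14870 genes of the deposited matrix. The list was chosen with earlier results of these data known. Counts of these genes set beside the share of all genes are therefore a description and no test of the set. The animals were wild type (WT) or deficient in Shank3 (KO), which encodes a scaffold protein of excitatory synapses, and were given water (control), antibiotics (abx), acetate, or antibiotics plus acetate (abx_and_acetate). Acetate is a short-chain fatty acid that gut bacteria make. The groups were WT_control (n = 6), WT_abx (n = 4), WT_acetate (n = 5), WT_abx_and_acetate (n = 4), KO_control (n = 4), KO_abx (n = 3), KO_acetate (n = 5) and KO_abx_and_acetate (n = 4). The sources used here do not name the antibiotics, doses, durations, strain, age or Shank3 allele. The labels give 15 libraries as female and 20 as male. They do not say that each library came from its own animal, so the p-values measure the spread between these libraries, which may be technical in part.

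Unfolded proteins in the ER are sensed by 3 membrane proteins, IRE1 (Ern1), PERK (Eif2ak3) and ATF6. IRE1 splices Xbp1 mRNA into the form that encodes an active transcription factor, ATF6 is cut to release another, and PERK slows translation and raises ATF4. XBP1 and ATF6 then induce chaperones, disulfide isomerases and degradation factors of the ER, the genes described here. In neurons this system also serves the folding of receptors and secreted proteins. A gene-level count does not separate spliced from unspliced Xbp1, so its splicing was not measured.

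Some promoters of this response are known for the ER stress response element (ERSE), which ATF6 binds together with NF-Y. It was searched here as CCAAT, any 9 bases, then CCACG, on both strands, in windows from 250 bases before to 50 after each RefSeq gene start (GRCm38.p6). Of the 10 genes, 9 had a window in the reference used, and Manf had none. An exact ERSE stood in 4 of these 9, in Hspa5, Hsp90b1, Pdia6 and Creld2, against 0.137% of the 27025 genes with a window (37 genes). Hsp90b1 held 2 copies. The separate parts are common: CCAAT was present in 8 of the 9 and in 41.1% of all genes, and CCACG in 8 of the 9 and in 35.5%. The stretches before the start are printed 5′ to 3′ on the gene's strand for the genes with an exact match. The ERSE is in capitals, and on the opposite strand it reads CGTGG, 9 bases, ATTGG. The stretches are chr2:34771940-34772089 (plus strand) for Hspa5, chr10:86705445-86705694 (minus) for Hsp90b1, chr12:17266439-17266588 (plus) for Pdia6 and chr15:88819496-88819645 (plus) for Creld2.
Hspa5: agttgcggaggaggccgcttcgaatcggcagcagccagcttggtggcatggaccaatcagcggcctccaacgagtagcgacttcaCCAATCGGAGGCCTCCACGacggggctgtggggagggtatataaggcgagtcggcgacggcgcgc
Hsp90b1: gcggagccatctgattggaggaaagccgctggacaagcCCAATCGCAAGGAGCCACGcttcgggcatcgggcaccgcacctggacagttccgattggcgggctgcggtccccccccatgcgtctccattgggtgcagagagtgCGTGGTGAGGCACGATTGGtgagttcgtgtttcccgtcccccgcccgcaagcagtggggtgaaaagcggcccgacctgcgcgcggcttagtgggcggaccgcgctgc
Pdia6: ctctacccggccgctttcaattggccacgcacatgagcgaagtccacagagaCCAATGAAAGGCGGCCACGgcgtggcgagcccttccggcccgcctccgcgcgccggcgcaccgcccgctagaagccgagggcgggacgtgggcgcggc
Creld2: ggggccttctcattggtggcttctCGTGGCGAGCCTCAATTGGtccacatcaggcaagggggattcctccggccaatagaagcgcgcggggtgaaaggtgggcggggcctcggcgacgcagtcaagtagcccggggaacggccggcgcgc

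In Hspa5 the element lay from -65 to -47 relative to the start, and in Pdia6 from -98 to -80. In Creld2 it lay from -126 to -108 on the opposite strand. In Hsp90b1 the copies lay from -212 to -194 and, on the opposite strand, from -107 to -89. Dnajb9 is shown for contrast (chr12:44210069-44210218, minus strand). It has both parts, in capitals, but not at the spacing of the ERSE.
Dnajb9: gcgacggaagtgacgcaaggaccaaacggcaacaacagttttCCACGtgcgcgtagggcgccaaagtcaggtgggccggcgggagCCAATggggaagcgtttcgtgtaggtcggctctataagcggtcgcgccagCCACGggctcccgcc

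No window of the 9 genes held the exact letters of 2 related elements, and Manf was not searched. The elements were the ERSE-II, searched as ATTGG, any base, CCACG (0.0444% of genes), and the UPRE, searched as TGACGTGG (0.714% of genes). The window of Xbp1 held neither part of the ERSE. These are matches of letters and not measured binding.

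**Figure D1:**
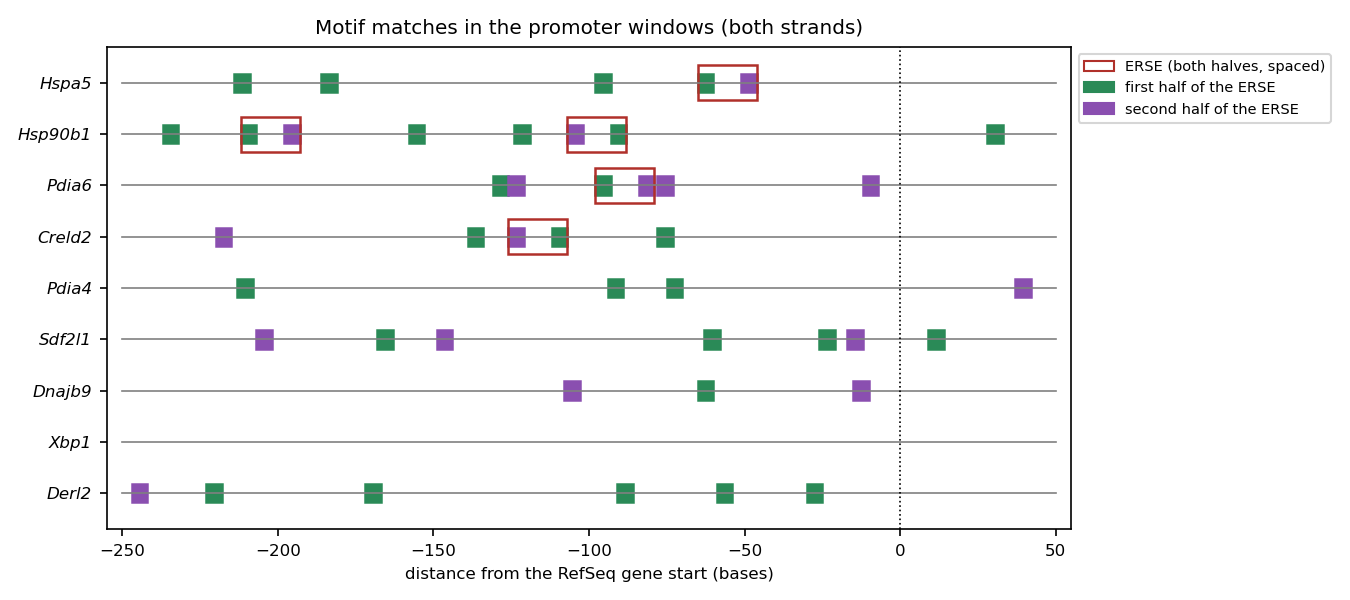
Positions of motif matches in the promoter windows of 9 ER stress response genes; the horizontal axis is the distance from the RefSeq gene start in bases, open boxes are exact ERSE matches, and filled boxes are its CCAAT and CCACG parts on either strand. Open boxes are seen in Hspa5, Hsp90b1 (2 copies), Pdia6 and Creld2. For Derl2, which has more than 1 listed start, the window with matches is drawn.

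Depth was 12.8 to 28.0 M reads per library (median 21.8), the RNA integrity number (RIN) 8.8 to 9.3, and the least-read of these genes in any library still had 139 reads. Shank3 was at most 5.11 log2 CPM (the log2 of reads scaled to the library total) in KO and at least 7.48 in WT, which separated the genotypes, although the libraries labelled WT_abx 4, WT_acetate 2 and WT_acetate 5 lay lowest among the WT libraries (7.48 to 8.08, against at least 8.22 in the rest). In 4 libraries (WT_abx 3, WT_acetate 2, WT_acetate 4 and WT_acetate 5) Y-linked genes went against the labelled sex. WT_acetate 2 and WT_acetate 5 are in both sets, and all libraries were kept under their labels. Cortical excitatory neuron markers were high in every library (Slc17a7 10.48 to 11.06 log2 CPM), while KO_acetate 1 also carried striatal markers (Drd2 4.93 against a median of -0.07) and WT_abx 4 the choroid plexus marker Ttr (6.54 against -1.85). In bulk tissue, fewer cells of a type and less RNA per cell cannot be told apart.

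Xbp1, the transcription factor of the group, ran from 6.30 to 6.81 log2 CPM in WT_control, with a median of 6.72. Xbp1 was at 6.21, 6.30, 6.26 and 6.23 in WT_abx, at 6.12, 6.43, 6.52, 6.27 and 6.36 in WT_acetate, and at 6.07, 6.13, 6.16 and 6.27 in WT_abx_and_acetate. All libraries given both agents lay below all controls. In KO_control it was at 5.86, 6.38, 6.42 and 6.82, a spread wider than the distance between any pair of group means.

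Hspa5 encodes BiP, the main chaperone of the ER and the protein that holds the stress sensors inactive. It ran from 7.64 to 8.48 in WT_control with a median of 8.32, and these libraries split: replicates 1, 4, 5 and 6 lay between 8.30 and 8.48, replicates 2 and 3 at 7.66 and 7.64. WT_abx libraries were at 7.89, 7.71, 7.56 and 7.36, WT_acetate at 7.62, 8.16, 7.93, 7.50 and 7.59, and WT_abx_and_acetate at 7.50, 7.49, 7.39 and 7.51. The group given both agents was thus tight and below every WT control. In KO_control the values were 7.43, 8.17, 8.03 and 8.65, in KO_abx 7.59, 7.87 and 7.36, in KO_acetate 7.76, 7.71, 7.46, 7.46 and 7.64, and in KO_abx_and_acetate 7.64, 7.69, 7.63 and 7.46. Here 3 KO controls lay above every treated KO library and replicate 1 below most of them.

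Hsp90b1 encodes GRP94, the HSP90 of the ER. It ran from 8.09 to 8.50 in WT_control (median 8.37), and was at 8.26, 8.16, 8.05 and 7.99 in WT_abx and 8.21, 8.16, 8.14 and 7.91 in WT_abx_and_acetate, so that the groups overlapped. Its KO_control libraries were at 8.02, 8.30, 8.46 and 8.63, and KO_abx_and_acetate at 8.15, 8.12, 8.11 and 8.18. Sdf2l1, which works with the BiP co-chaperone cycle, had the widest range of the 10 genes, 3.14-fold between its lowest library (KO_control 1, 3.01) and its highest (KO_control 4, 4.66). It ran from 3.51 to 4.56 in WT_control (median 4.15) and was at 3.15, 3.13, 3.07 and 3.46 in WT_abx_and_acetate, all below the controls. Dnajb9, a J-domain co-chaperone of BiP, moved differently: it ran from 5.18 to 5.49 in WT_control (median 5.43) and was at 5.42, 5.32, 5.52 and 5.69 in WT_abx_and_acetate, within or above the control range.

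Pdia4 and Pdia6 encode disulfide isomerases, which form and rearrange disulfide bonds in new proteins. Pdia4 ran from 5.03 to 5.63 in WT_control (median 5.49) and was at 4.69, 4.74, 4.71 and 5.08 in WT_abx_and_acetate; the last of these, the shallowest library, overlapped the controls. Pdia6 ran from 6.70 to 7.36 in WT_control (median 7.22) against 6.64, 6.66, 6.58 and 6.55 in WT_abx_and_acetate, with no overlap. In KO_control Pdia6 was at 6.37, 7.18, 7.10 and 7.41, and in KO_abx_and_acetate at 6.78, 6.82, 6.80 and 6.79.

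Creld2 and Manf encode ER proteins that are secreted under stress, and MANF is a neurotrophic factor. Creld2 ran from 3.81 to 4.58 in WT_control with a median of 4.13. It was at 3.93, 3.66, 3.37 and 3.61 in WT_abx, at 3.33, 4.06, 4.11, 3.52 and 3.75 in WT_acetate, and at 3.18, 3.35, 3.50 and 3.53 in WT_abx_and_acetate, the last group entirely below the controls. Manf ran from 5.26 to 5.92 in WT_control (median 5.63) and was at 5.40, 5.14, 5.16 and 4.94 in WT_abx, which reached into the control range with 1 library.

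Derl2, a membrane protein of ER-associated degradation (ERAD), behaved apart from the chaperones. Its 6 WT_control libraries were nearly equal, from 4.73 to 4.77 with a median of 4.75. WT_abx was at 4.42, 4.63, 4.44 and 4.66, WT_acetate at 4.35, 4.44, 4.47, 4.45 and 4.55, and WT_abx_and_acetate at 4.68, 4.47, 4.53 and 4.55, so every treated WT library lay below every WT control. Of all genes, 1.30% lay entirely below the controls under antibiotics and 0.908% under acetate. KO_control was also below WT_control, at 4.49, 4.43, 4.63 and 4.68 (0.424% of all genes).

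**Figure D2:**
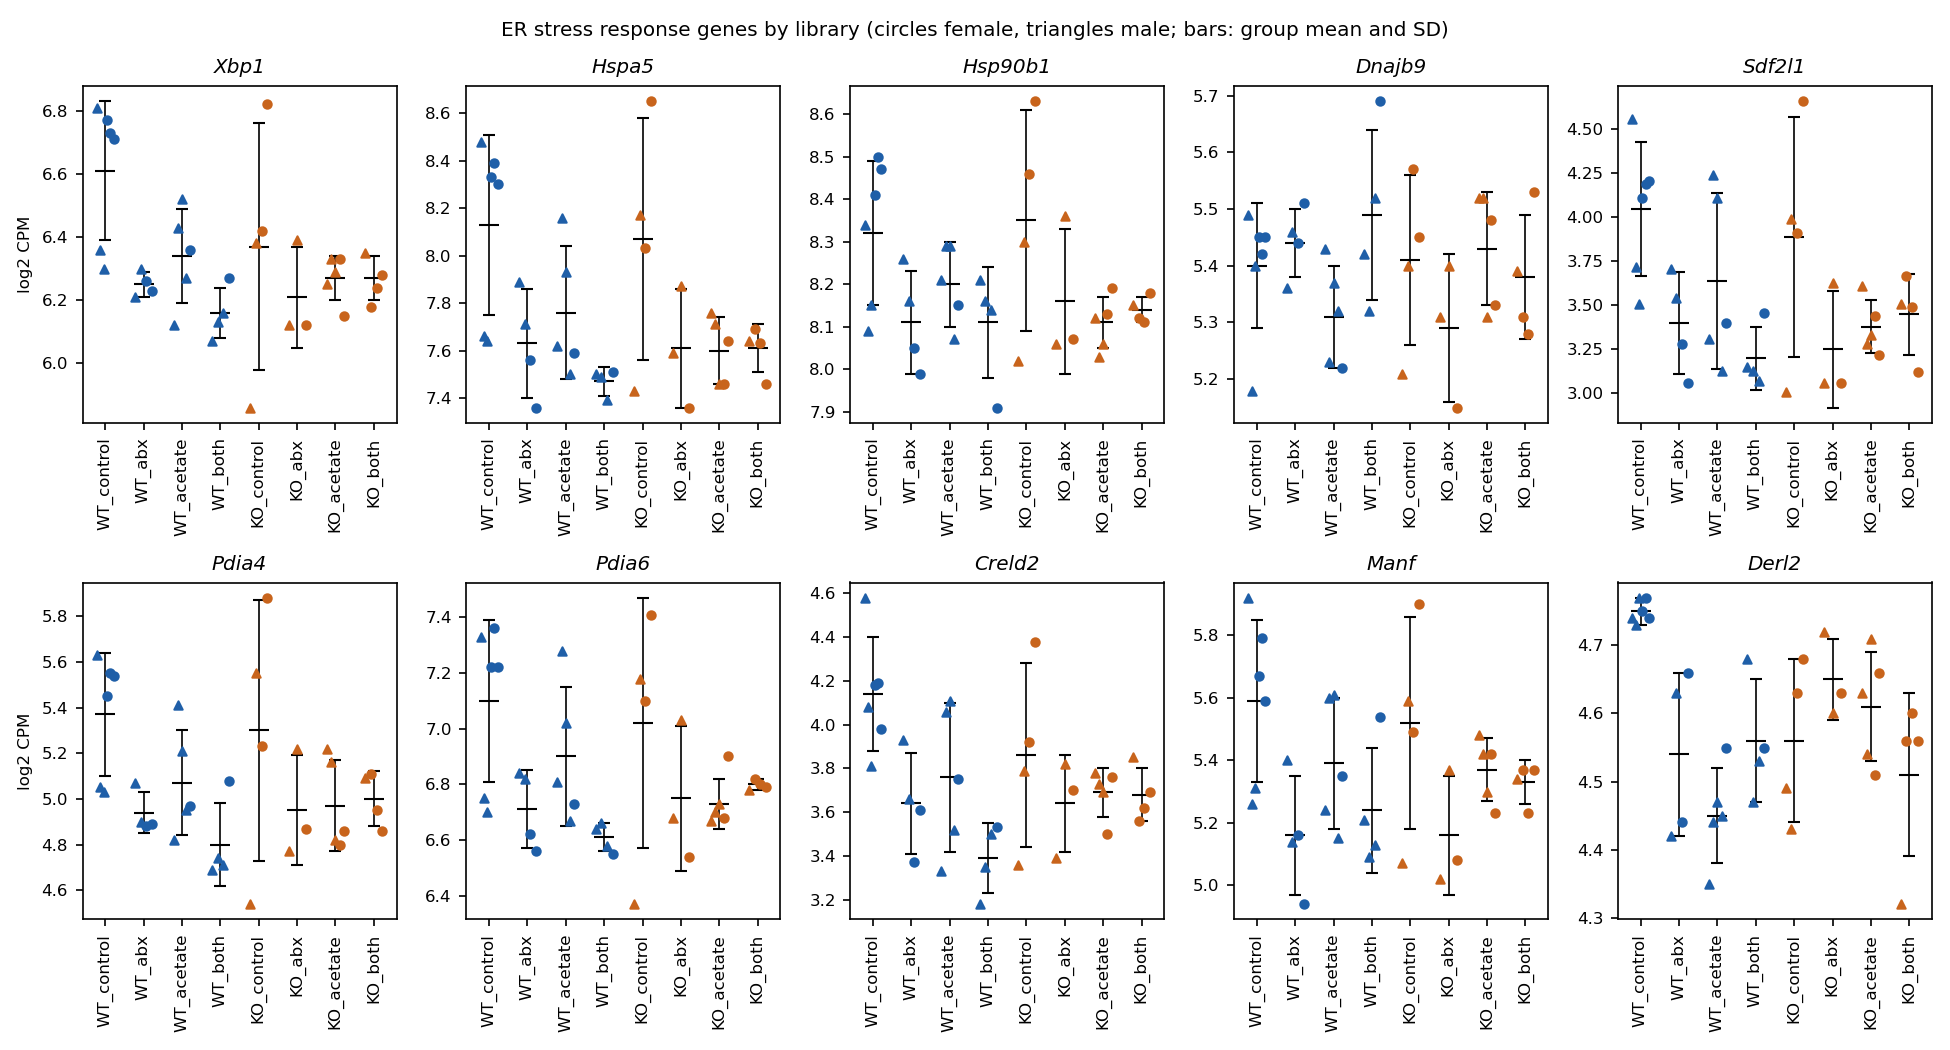
Log2 CPM of the 10 genes in each library, by genotype and treatment ("both" is abx_and_acetate); circles are libraries labelled female, triangles male, and bars give the group mean and SD. In WT_control, 4 of the 6 libraries sit high for most genes, and in Xbp1, Hspa5, Hsp90b1, Sdf2l1, Pdia4 and Pdia6 the KO_control libraries 1 and 4 are the lowest and highest controls.

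In WT mice given antibiotics with acetate, 9 of the 10 genes were lower than in WT controls at an unadjusted p under 0.05, where 7.32% of all genes were. Creld2 fell, with a log2 fold of -0.74 ± 0.16 (standard error, SE) and an adjusted p of 0.0288 by limma with Benjamini-Hochberg adjustment over all genes, so that its level fell by 40.3%. It was the single gene of the 10 past the threshold of 0.05, which 0.383% of all genes passed downwards. Just short of it were Xbp1 at -0.43 ± 0.11 (limma adjusted p = 0.0577), Hspa5 at -0.65 ± 0.18 (0.0659) and Sdf2l1 at -0.84 ± 0.24 (0.0777). Pdia4 was at -0.55 ± 0.17, Pdia6 at -0.48 ± 0.15, Manf at -0.33 ± 0.13, Hsp90b1 at -0.21 ± 0.09 and Derl2 at -0.18 ± 0.06, with adjusted p-values from 0.102 to 0.297. Dnajb9 alone had a positive fold, 0.10 ± 0.08. In 6 genes (Xbp1, Hspa5, Sdf2l1, Pdia6, Creld2 and Derl2) every treated library lay below every control, as in 2.24% of all genes. The median fold was -0.45, against 0.001 over all genes.

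The call of Creld2 rested on few libraries. No gene of the 10 passed without WT_control 1, 4 or 5 or without WT_abx_and_acetate 1, 2 or 3, nor with the fit confined to the compared groups or to males. Without WT_control 2, 2 passed, with 63 genes of all, and without WT_control 3, 4 passed, with 203 of all, against 108 of all genes with every library. In females alone WT_abx_and_acetate 4 was the only treated library, so only folds are given for that fit. They were -0.83 for Hspa5, -0.55 for Hsp90b1 and -0.72 for Pdia6.

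Antibiotics alone gave a like set of values in WT. Again 9 of 10 genes were lower at an unadjusted p under 0.05 (4.96% of all genes), but none passed the adjusted threshold, and neither did any of the 14870 genes (0%). Derl2 had the smallest p, with a log2 fold of -0.21 ± 0.06 (limma adjusted p = 0.263). Xbp1 followed at -0.36 ± 0.11 and Manf at -0.43 ± 0.13, then Creld2 at -0.49 ± 0.16, Hspa5 at -0.50 ± 0.18, Sdf2l1 at -0.66 ± 0.23, Pdia6 at -0.39 ± 0.15, Pdia4 at -0.44 ± 0.17 and Hsp90b1 at -0.21 ± 0.09. Dnajb9 was at 0.04 ± 0.07. The median was -0.41, against 0.005 over all genes. In males alone (WT_abx 1 and 2 against WT_control 1 to 3) 1 gene was lower at an unadjusted p under 0.05. In females alone (WT_abx 3 and 4 against WT_control 4 to 6) 9 were. After adjustment 0 passed in males (0 of all genes) and 6 in females (150 of all genes). Both treated female libraries carry limits given above. In WT_abx 3 Y-linked genes went against the labelled sex. WT_abx 4 was among the WT libraries lowest in Shank3 and carried the choroid plexus marker Ttr.

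Under acetate alone all 10 folds in WT were below 0, with a median of -0.26, and 4 were lower at an unadjusted p under 0.05 (4.84% of all genes). None passed after adjustment, where 0.00672% of all genes did. Derl2 came nearest, with a log2 fold of -0.28 ± 0.06 (limma adjusted p = 0.0804) and the sixth smallest p of all genes; Creld2 was at -0.38 ± 0.15, Xbp1 at -0.24 ± 0.11 and Hspa5 at -0.36 ± 0.17. The count of 4 was 1 or 2 without WT_control 1 or 4 or WT_acetate 1, 4 or 5, and 6 without WT_control 3 or WT_acetate 2. It was 1 when the 4 libraries with discordant Y-linked genes were left out. Beside these values, 18 of 24 immediate early genes, which neurons transcribe upon activity, were lower under acetate at an unadjusted p under 0.05 (median -0.73), led by Fosl2 at -0.86 ± 0.23, Fosb at -1.08 ± 0.30 and Per1 at -0.60 ± 0.17, and 5 of 17 glucocorticoid-responsive genes (median -0.38). Their part in the result was not tested. The 3 WT comparisons share the same 6 control libraries, whose own split carries into each of them. Antibiotics with acetate against antibiotics alone, which does not use them, gave folds from -0.25 to 0.10 in WT, with 0 genes past either threshold (0% of all genes after adjustment). The smallest p there was that of Creld2, at -0.25 ± 0.18, followed by Hspa5 at -0.15 ± 0.19 and Sdf2l1 at -0.18 ± 0.26.

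In KO mice the folds pointed the same way in most genes and none passed. Under antibiotics 3 genes were lower at an unadjusted p under 0.05 (1.65% of all genes; 0.0134% passed after adjustment): Sdf2l1 at -0.64 ± 0.28, Manf at -0.35 ± 0.16 and Hspa5 at -0.45 ± 0.21 (limma adjusted p = 0.999 for each). Under acetate they were Hsp90b1 at -0.24 ± 0.09, Hspa5 at -0.46 ± 0.18 and Sdf2l1 at -0.51 ± 0.24, with adjusted p-values of 0.298, 0.299 and 0.373 (6.44% of all genes unadjusted, 0% adjusted). Under antibiotics with acetate they were Hspa5 at -0.47 ± 0.19 and Hsp90b1 at -0.22 ± 0.10 (3.75% and 0%), and Sdf2l1 came next at -0.46 ± 0.26. The medians were -0.24, -0.21 and -0.21. Of 17 glucocorticoid-responsive genes, 9, 8 and 10 were lower at an unadjusted p under 0.05 under antibiotics, acetate and both agents, with medians of -0.54, -0.36 and -0.52. Their mean level, as a deviation from the mean of all libraries, was -0.14 to 1.43 in KO_control, -0.30 to 0.08 in KO_abx, -0.23 to 0.19 in KO_acetate and -0.32 to 0.03 in KO_abx_and_acetate. The KO_control median was 0.28, and the 1.43 was that of a library labelled male, while female controls reached 0.33. Within groups the mean level of these genes had an r of -0.39 with the 10 genes. Their part in the result was not tested.

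KO_control is the group on which these values turn, since replicate 1 was the lowest library of the series in 4 genes and replicate 4 the highest in 6. Without KO_control 1, the counts at an unadjusted p under 0.05 rose from 3, 3 and 2 to 8, 8 and 7, and without KO_control 4 they were 0 in each comparison. Without KO_control 2 the count under antibiotics was also 0, as it was without KO_abx 1 or 3, and it was 6 without KO_abx 2. Without KO_control 3 the counts under acetate and under both agents were 1, and under both agents also without KO_abx_and_acetate 2, 3 or 4. Antibiotics with acetate against antibiotics alone gave 1 gene in KO at an unadjusted p under 0.05, Derl2 at -0.16 ± 0.07 (0.868% of all genes lower; 0% after adjustment), ahead of Manf at 0.14 ± 0.16 and Dnajb9 at 0.07 ± 0.09.

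**Figure D3:**
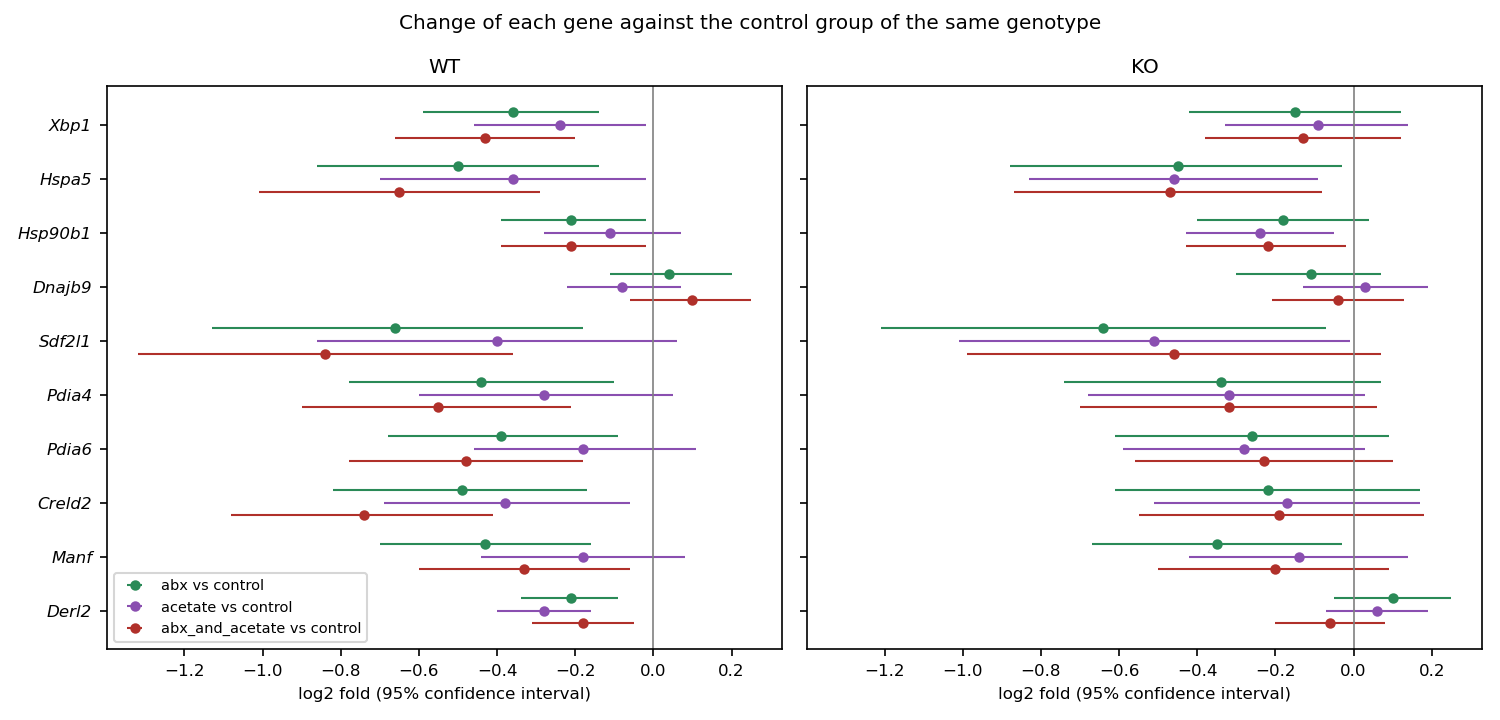
Log2 fold of each gene for each treatment against the control group of the same genotype, with 95% confidence intervals from limma; WT on the left and KO on the right. Most points lie left of 0, Dnajb9 lies at about 0 in both, and Derl2 lies left of 0 in WT and around 0 in KO.

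Between KO and WT none of these genes passed the adjusted threshold under any treatment. In control mice Derl2 was lower in KO, at -0.19 ± 0.06 (limma adjusted p = 0.788), with no overlap between the groups, as was Xbp1, at -0.24 ± 0.11, which did overlap; 2.23% of all genes were lower at an unadjusted p under 0.05 and 0.0202% passed after adjustment. Creld2 came next, at -0.27 ± 0.16. Under acetate Derl2 was higher in KO by 0.15 ± 0.06 (3.05% of all genes higher unadjusted; 0.00672% adjusted), ahead of Dnajb9 at 0.11 ± 0.07 and Pdia6 at -0.18 ± 0.14. Under antibiotics no gene had an unadjusted p under 0.05 (0.0134% of all genes adjusted); Derl2 was at 0.12 ± 0.07, Dnajb9 at -0.15 ± 0.09 and Hsp90b1 at 0.06 ± 0.11. Nor did any under both agents (0.0134%), where Creld2 was at 0.28 ± 0.18, Dnajb9 at -0.13 ± 0.08 and Derl2 at -0.07 ± 0.07, or over all treatments (0.0202%), where Xbp1 was at -0.07 ± 0.06, Dnajb9 at -0.04 ± 0.04 and Sdf2l1 at -0.09 ± 0.13.

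Whether the treatments acted differently in the genotypes was tested by interaction terms, and none of the 10 passed (0% of all genes for each of the 3 terms). Derl2 had the smallest p under each single agent. Its treatment change was more positive in KO than in WT by 0.31 ± 0.10 under antibiotics (1.32% of all genes higher at an unadjusted p under 0.05) and by 0.34 ± 0.09 under acetate (limma adjusted p = 0.997; 2.04%), where its p was the fourth smallest of all genes. The next genes were Dnajb9 at -0.16 ± 0.12 and Xbp1 at 0.22 ± 0.17 under antibiotics, and Hsp90b1 at -0.13 ± 0.13 and Dnajb9 at 0.10 ± 0.11 under acetate. Under both agents Creld2 was higher by 0.56 ± 0.24 (2.31%), ahead of Xbp1 at 0.30 ± 0.17 and Derl2 at 0.12 ± 0.09.

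Over both genotypes, libraries with antibiotics had 8 of the 10 genes lower than libraries without, at an unadjusted p under 0.05 (3.63% of all genes), and none after adjustment (0%). Manf was at -0.25 ± 0.07 (limma adjusted p = 0.507), Hspa5 at -0.31 ± 0.09 and Sdf2l1 at -0.42 ± 0.13. The others were Creld2 at -0.27 ± 0.09, Xbp1 at -0.18 ± 0.06, Pdia4 at -0.26 ± 0.09, Pdia6 at -0.22 ± 0.08 and Hsp90b1 at -0.12 ± 0.05, all with adjusted p-values of 0.546 or 0.589. In males alone the count was 0. For acetate over both genotypes 3 genes were lower (9.16%; 0.0672% adjusted): Derl2 at -0.09 ± 0.03, Hspa5 at -0.25 ± 0.09 and Creld2 at -0.19 ± 0.09.

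The split within the controls followed the labelled sex in part, and the genes were therefore also fitted with a mean for each group and sex, a choice made after the values were seen. In Hspa5 the male controls WT_control 1 and KO_control 2 (8.48 and 8.17) lay among the female controls (8.03 to 8.65). Whether sex or another difference between these libraries lies behind the split was not tested. The only female library was replicate 5 in WT_acetate, 4 in WT_abx_and_acetate and 3 in KO_abx, and the only male in KO_abx_and_acetate was replicate 1. In females, 8 of the 10 genes fell between control (5 libraries) and the mean of the 3 treatments (10 libraries) over both genotypes, where 2.78% of all genes passed downwards. In males (5 control and 15 treated libraries) none did, where 1.75% of all genes passed in either direction.

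Hsp90b1 showed this most clearly. In females it was between 8.41 and 8.63 in the 5 controls and between 7.91 and 8.19 in the 10 treated libraries, with no overlap, and the log2 fold was -0.43 ± 0.06 (limma adjusted p = 0.000715). In males it was between 8.02 and 8.34 in the controls and between 8.03 and 8.36 in the treated, and the fold was -0.00 ± 0.06 (adjusted p = 0.981). The difference between the sexes was -0.42 ± 0.08 (adjusted p = 0.0176).

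Hspa5 fell in females by 0.83 ± 0.14 on the log2 scale (limma adjusted p = 0.00237), from 8.03 to 8.65 in controls to 7.36 to 7.69 in treated libraries. Its male controls ran from 7.43 to 8.48 and its treated males from 7.39 to 8.16 (fold -0.18 ± 0.13). That male fold was -0.37 without KO_control 1, -0.04 without WT_control 1 and 0.00 without KO_control 2. The highest treated male, WT_acetate 2 at 8.16, had Y-linked genes against its label and lay within the range of the female controls. The fit used the labels, and the discordant libraries were not regrouped. With the 4 of them left out, the female fold of Hspa5 was -0.86. Pdia6 (-0.59 ± 0.12), Xbp1 (-0.43 ± 0.09), Sdf2l1 (-0.92 ± 0.20) and Pdia4 (-0.60 ± 0.14) fell in females too. So did Creld2 (-0.51 ± 0.14) and Manf (-0.41 ± 0.11), and the adjusted p-values of these 6 genes ran from 0.00583 to 0.0368. Derl2 (-0.13 ± 0.05, adjusted p = 0.146) and Dnajb9 (-0.09 ± 0.06, adjusted p = 0.423) did not pass.

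In the test of the difference between the sexes Hsp90b1 alone passed (1.43% of all genes passed downwards). At an unadjusted p under 0.05, 6 genes were more negative in females (10.3% of all genes), among them Hspa5 at -0.65 ± 0.20 (limma adjusted p = 0.0601), Pdia6 at -0.53 ± 0.16 (0.0604) and Xbp1 at -0.39 ± 0.12 (0.0687). In controls, 7 genes were higher in females at an unadjusted p under 0.05 (9.83%), and Hsp90b1 passed after adjustment at 0.33 ± 0.07 (limma adjusted p = 0.0227, with 0.847% of all genes). The split of these same control libraries prompted the fit by sex, so this test is not separate evidence of a sex difference. The female folds and the difference between the sexes use the same controls. Over the 3 treatments Hsp90b1 differed between females and males by -0.10 ± 0.05 (adjusted p = 0.941). The female fold of Hsp90b1 was -0.43 ± 0.08 in WT and -0.42 ± 0.09 in KO, and that of Hspa5 -0.82 ± 0.19 and -0.84 ± 0.21. The treated WT females were WT_abx 3, WT_abx 4, WT_acetate 5 and WT_abx_and_acetate 4. The last of these and WT_acetate 5 were each the only female library of their group. In WT_abx 3 and WT_acetate 5 Y-linked genes went against the female label. The fit without the discordant libraries is given over both genotypes only, so the WT female values below carry this limit. After adjustment 3 genes passed in WT females (Hsp90b1, Hspa5 and Pdia6, with 259 of all genes) and 0 in KO females (0 of all genes), where 9 of the 10 were lower at an unadjusted p under 0.05 (4.67% of all genes) and the smallest limma adjusted p was 0.306. In WT males 3 were lower at an unadjusted p under 0.05 (7.49% of all genes), Derl2 at -0.24 ± 0.06, Creld2 at -0.53 ± 0.16, the same fold as in WT females, and Xbp1 at -0.25 ± 0.11, and in KO males 0 (6.91%). The median was -0.24 in WT males and 0.00 in KO males.

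These counts depended on single controls. Without KO_control 4, 1 of the 8 genes passed in females, Hsp90b1 at -0.39 (limma adjusted p = 0.0192), and 26 genes of all passed in place of 706. The difference between the sexes passed in no gene without KO_control 1 or 4, in 5 without WT_control 1 and in 6 without KO_control 2, and in 2 without WT_acetate 4, KO_abx 1 or KO_abx_and_acetate 1. Over all genes 570 passed with every library, 1 and 16 without KO_control 1 or 4, 1718 without WT_control 1 and 1801 without KO_control 2, and 640 to 857 in the last 3 fits. The female against male difference in controls passed in no gene without WT_control 2, 3, 5 or 6 or KO_control 1 or 4, in 7 without WT_control 1, in 6 without KO_control 2 and in 2 without KO_acetate 1. Over all genes 288 passed with every library, 6 to 41 in the fits with none of the 10, and 1586, 1584 and 509 in the other 3. With the 4 libraries of discordant Y-linked genes left out, 8 genes passed in females and 1 in the difference.

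**Figure D4:**
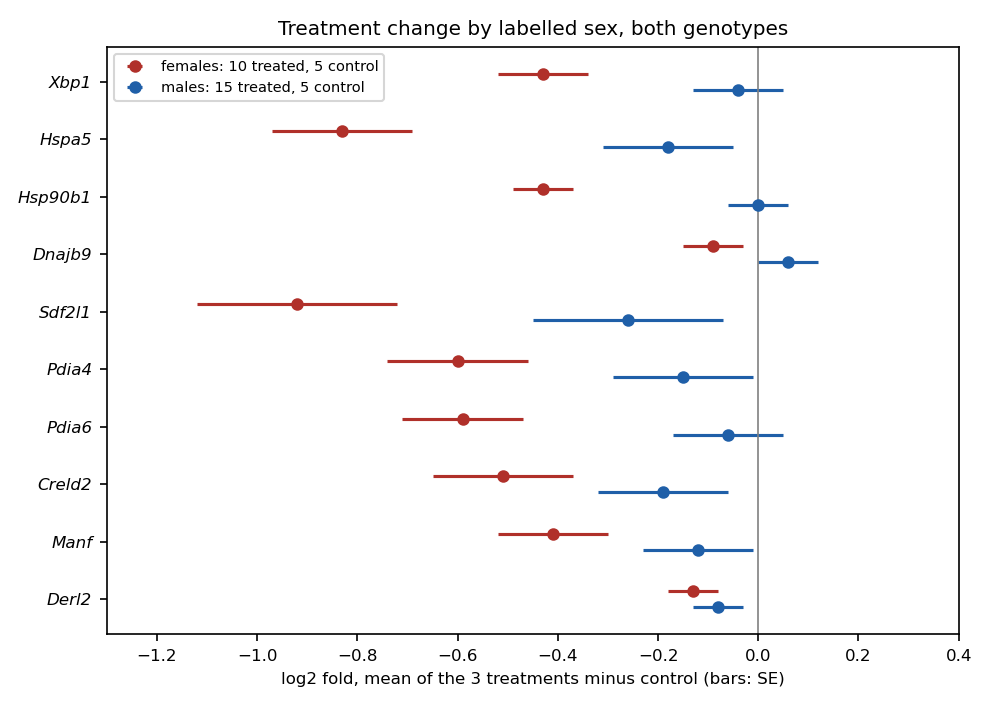
Log2 fold between the mean of the 3 treatments and control over both genotypes, for libraries labelled female (10 treated, 5 control) and male (15 treated, 5 control); bars give the SE from limma. The female points lie left of the male points for all 10 genes, from -0.09 to -0.92 against 0.06 to -0.26.

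Other groups of ER genes, listed with earlier results known, were measured alongside, and their counts stand against the 2.78% of all genes that fell in females and the 1.75% that passed in either direction in males. Of 21 other ER chaperones and foldases, 5 fell in females and none in males, led by Calr, a lectin chaperone (-0.52 ± 0.10), Hyou1, a large chaperone that acts with BiP (-0.43 ± 0.08), and Pdia3, a partner of calreticulin (-0.40 ± 0.09). Of 18 ERAD genes 1 fell in females (Edem3, -0.17 ± 0.05) and 1 rose (Ufd1l, 0.22 ± 0.06); Herpud1 was at -0.23 ± 0.08. Of 25 genes of translocation into the ER 4 fell, among them Sec63 (-0.19 ± 0.04), Srp68 (-0.20 ± 0.05) and Sec61a1 (-0.22 ± 0.05). None of 9 sensor and protease genes passed (Atf6 -0.28 ± 0.10, Atf6b -0.18 ± 0.07, Eif2ak3 0.12 ± 0.06), and none of 26 targets of PERK and the integrated stress response (Atf4 -0.25 ± 0.08, Atf3 -1.11 ± 0.37, Cebpg -0.14 ± 0.05). The list medians were -0.13, -0.10, -0.05, -0.05 and -0.11 in that order, against -0.47 for the 10 genes. In males none passed in any of these 5 lists.

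In WT under both agents none of these 5 lists had a gene past the threshold. Over all genes 7.32% were lower and 7.04% higher at an unadjusted p under 0.05. Lower at an unadjusted p under 0.05 were 5 of 21 other chaperones, with Hyou1 at -0.31 ± 0.11, Dnajb11 at -0.28 ± 0.11 and Calr at -0.30 ± 0.13 first. Of the sensors 2 were lower and 1 higher, with Atf6b at -0.28 ± 0.07 (limma adjusted p = 0.0557), Creb3l2 at -0.42 ± 0.16 and Mbtps2 at 0.15 ± 0.06. Of the 26 PERK targets none was; Ddit3, which encodes CHOP, was at -0.24 ± 0.12, Atf3 at -0.87 ± 0.49 and Atf4 at -0.17 ± 0.10. In ERAD 3 were lower and 3 higher, led by Ubxn4 at -0.15 ± 0.05, Ufd1l at 0.18 ± 0.07 and Derl3 at -0.68 ± 0.27. In translocation 2 were lower and 3 higher, led by Sec61a1 at -0.21 ± 0.06, Srp9 at 0.18 ± 0.07 and Ssr1 at 0.13 ± 0.05.

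Other lists moved with that comparison. Of 24 immediate early genes 11 were lower and 1 higher at an unadjusted p under 0.05, led by Fosl2 at -0.95 ± 0.24, Per1 at -0.68 ± 0.18 and Klf4 at -1.06 ± 0.31; their mean level, on the scale used above, was 0.23 to 0.98 in WT_control and -0.41 to 0.23 in WT_abx_and_acetate. Of 7 microglia markers 3 were lower, led by Tmem119 at -0.42 ± 0.11 (limma adjusted p = 0.0577), C1qb at -0.32 ± 0.12 and C1qa at -0.27 ± 0.13, with mean levels of -0.03 to 0.15 and -0.37 to 0.08. None of these passed after adjustment, and their part in the result was not tested.

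Cytosolic heat shock genes and immediate early genes moved with the female result, where 2.78% of all genes fell. Of 20 heat shock genes 10 fell in females, led by Hsph1 (-0.49 ± 0.09), Hspa1b (-0.97 ± 0.17) and Hspa8 (-0.41 ± 0.08). Their mean level, on the same scale, was 0.14 to 0.31 in control females, -0.22 to 0.02 in treated females, -0.16 to 0.14 in control males and -0.19 to 0.18 in treated males. Of 24 immediate early genes 10 fell in females, led by Gadd45b (-0.71 ± 0.11), Ier5 (-0.70 ± 0.12) and Egr3 (-1.44 ± 0.25), and their mean level was -0.07 to 0.98 in control females, -0.44 to 0.35 in treated females, -0.94 to 0.40 in control males and -0.60 to 0.93 in treated males. Among 7 astrocyte markers 1 fell (Aqp4, -0.52 ± 0.14), with mean levels of 0.18 to 0.25 in control and -0.17 to 0.27 in treated females. Their mean level was -0.22 to 0.07 in control males, all below the control females, and -0.27 to 0.37 in treated males. The mean level of the 10 genes overlapped between control males (-0.35 to 0.50) and control females (0.19 to 0.56). Among 5 cortical excitatory neuron markers 1 rose (Tbr1, 0.33 ± 0.09), with mean levels of -0.10 to 0.04 in control and -0.20 to 0.17 in treated females. Of 17 glucocorticoid-responsive genes 1 fell in females, Cdkn1a (-1.47 ± 0.21, limma adjusted p = 0.000742), and 1 passed in males, with mean levels of 0.08 to 0.33 in control and -0.32 to 0.29 in treated females. No marker of oligodendrocytes, microglia, endothelium, blood, meninges, choroid plexus, striatal neurons or inhibitory neurons passed in females. The part of these lists in the result was not tested.

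Within groups, 8 of the 10 genes varied together. After the group means and the sex term were removed, the 28 pairs among Xbp1, Hspa5, Hsp90b1, Sdf2l1, Pdia4, Pdia6, Creld2 and Manf had Pearson's r from 0.56 to 0.94 over the 35 libraries, with a median of 0.82. This set of 8 was drawn after the values were seen. The highest r was that of Hspa5 with Pdia6. Pairs with Dnajb9 or Derl2 ran from -0.08 to 0.49, and against the mean of the other 9 genes Dnajb9 had an r of 0.38 and Derl2 of 0.03. All values come from the same libraries and share their handling and scaling, and r is given as a description. Hsp90b1, with 2 ERSE copies in the sequence above, Hspa5, Pdia6 and Creld2 were in the set of 8, as were Pdia4, Sdf2l1 and Xbp1, whose windows hold no exact match. Manf, the last of the 8, had no window to search.

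**Figure D5:**
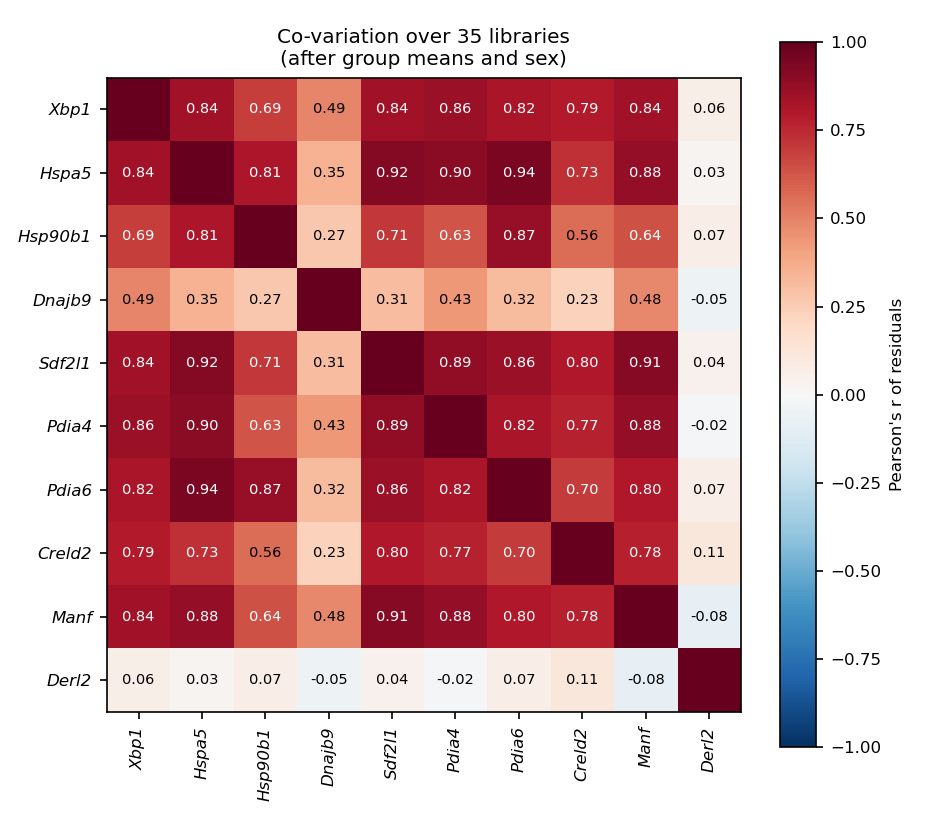
Pearson's r between pairs of the 10 genes over 35 libraries, after removal of group means and an additive term for labelled sex. Colour runs from -1 (blue) to 1 (red). Dnajb9 and Derl2 stand out as pale rows, with r of at most 0.49.

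Among 14009 other genes with a mean log2 CPM of at least 0, those closest to the mean residual of the 10 over the 35 libraries were Chordc1 (r = 0.92), Pdia3 (0.90), Top1 (0.90), Mlec (0.89), P4ha1 (0.87), Dnajb11 (0.87), Lman2 (0.86), Dda1 (0.86), Calr (0.85) and Hacd3 (0.84). Chordc1, the closest, belongs to the cytosolic heat shock list, and Pdia3, Dnajb11 and Calr to the ER chaperone list, while Mlec encodes an ER lectin, P4ha1 a collagen prolyl hydroxylase of the ER and Lman2 a cargo receptor of the secretory pathway. An r of at least 0.5 was reached by 7.05% of these genes. The mean of the other ER chaperones had an r of 0.84 with the 10 genes, that of cytosolic heat shock genes 0.81, ERAD genes 0.67, translocation genes 0.52, immediate early genes 0.45, PERK targets 0.29 and the sensors 0.02. With glucocorticoid-responsive genes it was -0.39, with RIN 0.10 and with depth 0.06.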

How the data were processed

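Bulk RNA from mPFC punches was sequenced as paired ends from strand-marking libraries, per the labels' protocols. The authors deposited 1 matrix of log2 CPM values in the form that voom gives; the submitters' processing notes name limma, and for aligner, counter, build and gene filter the sources used here give no name. With 0.5 added reads removed, 100% of the values were whole reads within 0.01, which gave the depths. Of the rows, 12 repeat another row's values.

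All 35 libraries entered 1 fit in limma 3.58.1 (R 4.3.3), taking the log2 matrix as deposited, unfiltered and without a further pseudocount: 8 group means, labelled sex as an additive term and a prior variance that follows the mean. P-values are 2-sided and adjusted by Benjamini-Hochberg over 14870 genes in each of 18 comparisons, with a threshold of 0.05. The recovered reads served only the alternatives (voom weights, 2 reads added). No score, list or correlation was tested. The genes and the lists were chosen with earlier results of these data known. All 10 genes are named; their values are printed at an unadjusted p under 0.05 and for the 3 smallest p in any comparison, and of other lists the 3 genes with the smallest p. Numbers after a group name follow the record order and pair no libraries. Promoter windows come from RefSeq (GRCm38.p6), used for sequence and position only. The fit was tested on simulated data.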

Additional observations from a re-analysis of the deposited data

Results flagged for a closer look

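Of 70 sets of 4 to 6 libraries (a gene in a group), 5 had a library far from the rest, and chance gives about 1 in 20. Dnajb9 was at 5.18 log2 CPM in WT_control 2, against 5.40 to 5.49 in the others. Pdia4 was at 5.07 in WT_abx 1, against 4.88 to 4.90, and at 5.08 in WT_abx_and_acetate 4, against 4.69 to 4.74. Pdia6 was at 6.90 in KO_acetate 5, against 6.67 to 6.73. Derl2 was at 4.32 in KO_abx_and_acetate 1, against 4.56 to 4.60. The fold of Hsp90b1 between the 3 treatments and control differed between the sexes by -0.42 ± 0.08 (female minus male, limma adjusted p = 0.0176). The split of the controls (0.33 ± 0.07, female against male) prompted the fit by sex and enters this difference, which is no separate evidence of a sex difference. It was -0.35 without KO_control 1 and -0.38 without KO_control 4, and did not pass in either fit.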

How the results depend on the processing

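No paired analysis was possible because the labels give no replicate numbers. Of 1965 recomputed folds of these genes, 1925 kept their direction and side of the threshold, 14 turned, 17 came past it and 9 lost it. Among the counts, 1 gene passed under acetate in WT with no sex term, and the count at an unadjusted p under 0.05 was 2 with only the compared groups, 2 with libraries centred on their medians, 1 without the 4 libraries against their sex label and 1 in males, and 1 to 6 when each library was left out. Under both agents in WT the calls were 2 with no sex term, 0 with only the compared groups, 0 in males, and 0 to 4 when each library was left out. Under antibiotics in WT, males gave 1 gene at an unadjusted p under 0.05 and females 9. After adjustment the calls were 0 and 6, with the limits on WT_abx 3 and 4 given above. Without the 3 WT libraries of lowest Shank3, the unadjusted counts in WT were 8 under antibiotics and 3 under acetate. In that fit 1 gene passed in WT under both agents. In KO under antibiotics the unadjusted count was 0 with only the compared groups, 0 in males, and 0 to 8 over left-out libraries. The only treated female there was KO_abx 3, and the median fold in females was -0.56. Under acetate the count was 0 in males and 8 in females, and 0 to 8 over left-out libraries. Under both agents it was 8 in females, and 0 to 7 over left-out libraries. The only treated male there was KO_abx_and_acetate 1, and the median fold in males was 0.01. For the antibiotic effect over genotypes the median fold was -0.10 in males and -0.28 in females. Only folds are given, since each of these fits had groups of 1 library. By sex, the female calls ran from 1 to 8 over left-out libraries, the difference between sexes from 0 to 6, and the female against male difference in controls from 0 to 7 (2 with voom weights).

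Some folds turned direction: in females alone, KO against WT in control for Creld2 (0.03), in acetate for Pdia6 (0.06) and under both agents for Derl2 (0.03), both agents against antibiotics in WT for Hspa5 (0.05), Sdf2l1 (0.29) and Creld2 (0.04), and the antibiotic interaction for Xbp1 (-0.01). In males alone, they were antibiotics in WT (0.02) and over genotypes (0.03) for Hsp90b1, both agents in KO for Sdf2l1 (0.02) and the antibiotic interaction for Dnajb9 (0.00). With RIN as a covariate, Hsp90b1 in KO against WT under antibiotics was at -0.01, and from -0.05 (without KO_abx 2) to 0.13 over left-out libraries. Dnajb9 under both agents against antibiotics in KO ran from -0.02 (without KO_abx 3) to 0.14 over left-out libraries. The cause was not tested. Each gene had at least 139 reads in every library; how much of the spread between libraries is counting error was not tested.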

Other observations

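Genes of the cytosolic heat shock response, whose products fold proteins outside the ER, had mostly negative folds in treated WT mice, and none passed the adjusted threshold. Under antibiotics with acetate 19 of 20 had a fold below 0 and 6 were lower at an unadjusted p under 0.05 (7.32% of all genes), with Hspb1, a small heat shock protein, at -1.07 ± 0.28 (limma adjusted p = 0.0577), Dnajb1, the HSP40 of the cytosol, at -0.46 ± 0.13 (0.0683) and Hspa1b, an inducible HSP70, at -0.75 ± 0.23 (0.102). Under antibiotics alone 19 of 20 were below 0 and 7 lower at an unadjusted p under 0.05 (4.96% of all genes), led by Hspa1b at -0.79 ± 0.23, Chordc1 at -0.42 ± 0.13 and Dnajb1 at -0.40 ± 0.12. Both comparisons use the same controls.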
